A study of Schizosaccharomyces pombe with 8 samples.

Results

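The genes described here are the protein-coding rows that lie within 100000 bases of either end of chromosome I of the fission yeast Schizosaccharomyces pombe. A gene row of the deposited table was taken when it ended at or before base 100000 or started at or after base 5479134, was shorter than 50000 bases and had an identifier of no non-coding RNA class; the rule leaves out SPAC1F8.02c and SPAC1F8.03c. It gave 68 of the 7022 gene rows, 35 at the left end and 33 at the right end. In the reference annotation 5 of the left-end rows, SPAC212.10, SPAC212.09c, SPAC212.07c, SPAC212.05c and SPAC977.13c, are pseudogenes. The rule itself uses no measured level, but it was set with earlier results of these data known.

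The ends of fission yeast chromosomes I and II carry blocks of near-identical sequence, with RecQ-type helicase genes next to the telomere repeats. In wild-type cells this DNA is packed as heterochromatin, which keeps the genes under it at low transcript levels, and beyond it lie stretches with many genes for nutrient uptake, detoxification and cell-surface proteins. The ends of chromosome III carry the ribosomal DNA arrays instead.

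Poly-A RNA was sequenced from OHI408, a strain with the deletion cwf10 2-127-delta, called cwf10-ΔNTE, and from OHI246, the wild type for cwf10. Cwf10 is a GTPase of the spliceosome, and the mutant protein lacks residues 2 to 127, its N-terminal extension. Both strains are of mating type h- and carry the markers leu1-32 and ura4-D18, and the labels give ade6-M21X for the mutant and ade6-M210 for the wild type. Both were grown in yeast extract (YE) medium at 25 °C, with 2 libraries per strain whose cultures shared a growth and were handled apart afterwards, so that the error of each test comes from library differences that may be technical only.

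Gene rows held 36186264 and 42593150 in the cwf10-ΔNTE libraries and 40857033 and 42802817 in the wild-type libraries, counted in reads. The label was checked on cwf10 itself. Reads joining the exons around its intron 1 numbered 0 and 0 in cwf10-ΔNTE and 98 and 85 in wild type, and those around intron 3 numbered 84 and 99 in cwf10-ΔNTE and 82 and 98 in wild type. A count of 0 allows up to 3 reads, which is 0.0806 and 0.0685 CPM (counts scaled to library size) in the cwf10-ΔNTE libraries and 0.0751 and 0.0724 CPM in the wild-type libraries; such limits cover counting error only.

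Many of these rows hold sequence that recurs elsewhere in the genome. Of the 68 rows, 31 had at least 50% of their 50-base windows at another place in the genome, 23 at the left end and 8 at the right end. That is 45.6% of the rows, against 1.49% of all other coding rows. The most similar row lay on chromosome II for 25 of the 31 and on chromosome I for 6. Most coding rows in which every window recurs received no reads. At the ends of chromosome I, 8 of 9 had 0 reads in all 4 libraries and the other, SPAC212.12, had 2 reads in all. Over all chromosomes, 37 of 39 such coding rows had 0 reads, and the most was 25 reads, on SPAPB17E12.02. With non-coding rows included, rows without reads made up a smaller share, and SPRRNA.52 held the most, 170 reads. For repeated coding rows a count is therefore taken to speak mainly of the windows found nowhere else. In such rows 0 reads do not show that the gene was silent.

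The row next to the left telomere, tlh1, encodes a RecQ-type DNA helicase. It is shown beside its chromosome II copy tlh2 because 1 base in 5662 separates them, and 50 of its 5613 windows are its own. The stretch around that base reads as follows on the coding strand, with the differing base in capitals, at chrI:5346-5374 (minus strand) for tlh1 and chrII:4527173-4527201 (plus strand) for tlh2.
tlh1: gctctctctgctctCtctgctctctctac
tlh2: gctctctctgctctTtctgctctctctac
No library had a read on tlh1. The tlh2 row runs on for another 353 bases and has 403 windows of its own among 5966. It held 1468 and 1766 reads in cwf10-ΔNTE and 126 and 111 in wild type, a log2 change of 3.78 ± 0.07 (SE; Benjamini-Hochberg [BH] adjusted p = 4.31e-25 by edgeR's quasi-likelihood test). Whether tlh1 changed along with tlh2 cannot be told from these counts.

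SPAC977.05c, at chromosome I 35768 to 36382 on the minus strand, encodes a protein with a Vel1p domain and is shown because its rise was the steepest of any member. It has identical copies of 612 bases on chromosome II, SPBC1348.06c (15981 to 16592) and SPBPB2B2.15 (4496373 to 4496984). The 615-base row of SPAC977.05c differs from them by 3 substitutions and 3 inserted bases, all within the stretches below. The first bases of the coding strand (chrI:36323-36382 and chrII:16536-16592, both minus strand) and its last 50 bases (chrI:35768-35817 and chrII:15981-16030, both minus strand) are given with the differences in capitals.
SPAC977.05c, first 60 bases: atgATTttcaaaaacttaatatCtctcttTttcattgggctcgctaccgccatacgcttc
SPBC1348.06c, first 57 bases: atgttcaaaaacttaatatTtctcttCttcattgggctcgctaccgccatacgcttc
SPAC977.05c, last 50 bases: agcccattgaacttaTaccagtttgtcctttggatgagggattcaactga
SPBC1348.06c, last 50 bases: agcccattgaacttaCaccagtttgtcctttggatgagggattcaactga
These few differences leave SPAC977.05c 65 windows of its own among 566. It had 89 and 97 reads in the cwf10-ΔNTE libraries and 0 and 1 in the wild-type libraries. The ratio of summed reads, corrected for library size, was 187, with a 95% interval for counting error alone of 33.1 to 7420. SPBC1348.06c and SPBPB2B2.15, which have no window of their own, stood at 0 reads in all 4 libraries. The row passed the filter on low counts through the cwf10-ΔNTE libraries alone, where it was high, so a test is not free of that selection and no p is given. As its mean was below 5 CPM it was singled out after its values were seen.

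Fewer reads were counted on rows next to the telomeres than on rows farther in. Of the 38 rows within 50000 bases of an end, 29 were at least 50% repeated, so that their counts mix the transcript level with how many reads could be placed. Scaled to row length, the median count over all 4 libraries was 0.0176 CPM per kb for these 38 rows and 8.52 CPM per kb for the 30 rows farther in, against 37.0 CPM per kb for all other coding rows. All 14 rows without a read in any library lay within 50000 bases, 7 at each end, and each was over 10% repeated; 26 rows there had fewer than 10 reads summed over the 4 libraries. Over the 68 rows, CPM per kb and distance from the end had a Spearman rho of 0.758 as a description; it was 0.664 over the 35 left-end rows and 0.889 over the 33 right-end rows, which share the same 4 libraries.

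**Figure D1:**
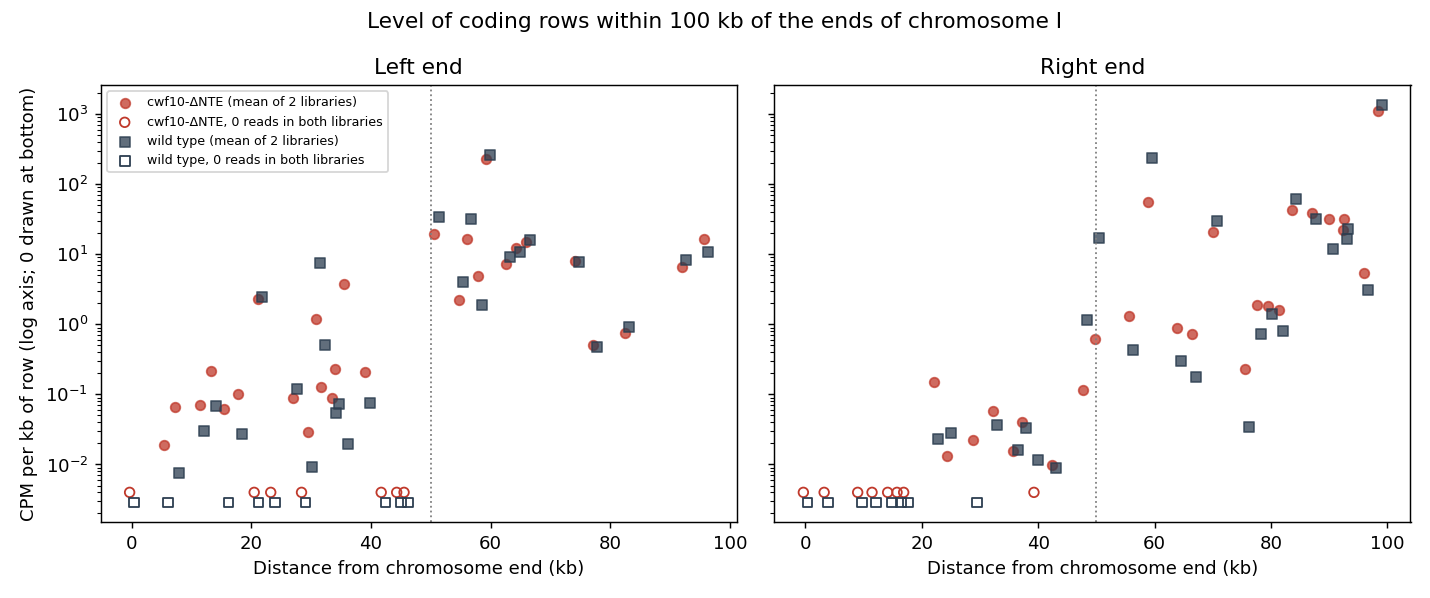
Mean level of each coding row (CPM per kb of row, log axis) against its distance from the left or right end of chromosome I (kb), with cwf10-ΔNTE as red circles and wild type as dark squares, drawn side by side with a small offset. Open symbols at the bottom mark 0 reads in both libraries of a strain; the dotted line marks 50000 bases, within which all 14 rows without reads lie.

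The 2 ends differed in what the low rows were made of. At the left end, 21 of 22 rows within 50000 bases were at least 50% repeated. At the right end this held for 8 of 16, and 7 of those 16 rows were at most 10% repeated, so that their reads could be placed. None of these 7 had 0 reads in all libraries, but 6 had fewer than 10. They are SPAC186.04c, gdt1 (a GDT1-like protein), SPAC186.06 (an isomerase), SPAC186.07c (a hydroxyacid dehydrogenase), SPAC186.08c (an L-lactate dehydrogenase) and pdc102 (a pyruvate decarboxylase). Of them gdt1 had the most reads, 1 and 4 in cwf10-ΔNTE and 2 and 2 in wild type. Scaled to row length SPAC186.07c was the highest, at 0.0472 CPM per kb, beside 0.0368 CPM per kb for gdt1. At these counts a difference between the strains was not detectable. The median over the 7 rows was 0.0208 CPM per kb, against 8.95 CPM per kb for the 17 right-end rows farther in, which are also at most 10% repeated. At the left end 1 row within 50000 bases was that little repeated, so there the inward rise of the counts cannot be told apart from the placing of reads. Among rows at most 10% repeated, level and distance had a rho of 0.767 over 24 right-end rows and 0.0909 over 10 left-end rows, of which 9 lay beyond 50000 bases.

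**Figure D2:**
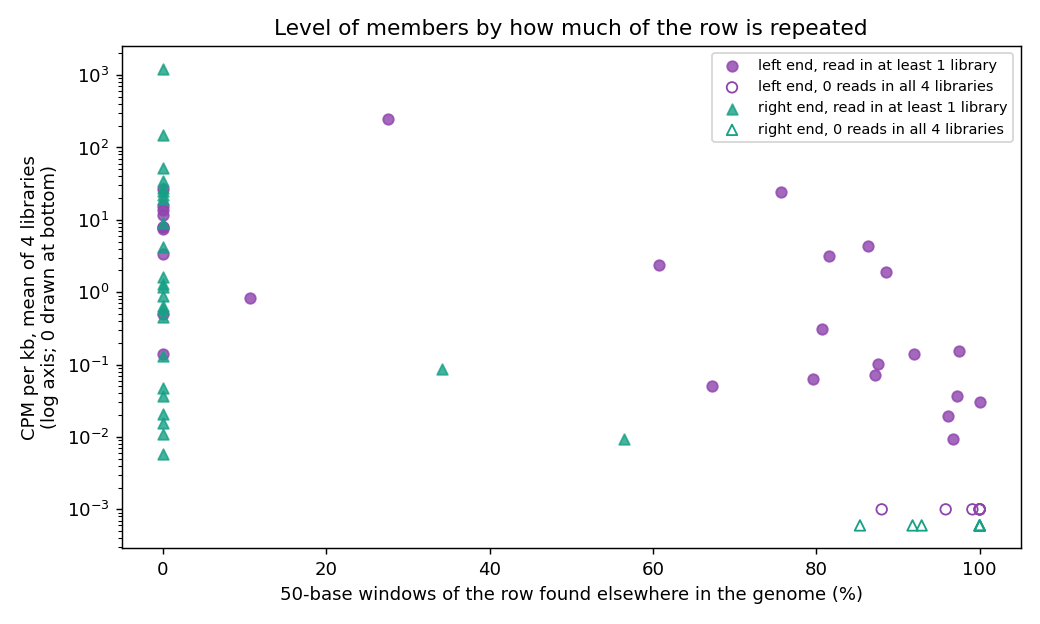
Level of each of the 68 rows (CPM per kb, mean of 4 libraries, log axis) against the percentage of its 50-base windows found elsewhere in the genome, with left-end rows as circles and right-end rows as triangles. Open symbols at the bottom are the 14 rows with 0 reads; rows with no repeated window reach from 0.00582 to 1223 CPM per kb.

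Summed reads were dominated by a few genes and were smaller in the cwf10-ΔNTE libraries at both ends. The left-end rows held 19750 and 23249 reads in cwf10-ΔNTE and 25355 and 26645 in wild type, which is 0.0546% of gene-row reads in cwf10-ΔNTE and 0.0622% in wild type (means of 2), a ratio of 0.878. The right-end rows held 47236 and 55127 reads in cwf10-ΔNTE and 72620 and 75000 in wild type, which is 0.130% in cwf10-ΔNTE and 0.176% in wild type, a ratio of 0.737. The libraries of the strains did not overlap at either end. The exact two-sided permutation p was 0.333 for each end, the smallest that 2 against 2 libraries allow. The left end held 0.418 and 0.422 times the reads of the right end in cwf10-ΔNTE and 0.349 and 0.355 times in wild type, with the same exact permutation p.

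A single row carried about as many reads as all others at each end. SPAC977.14c, for an aldo-keto reductase family protein, took 53.1% to 56.5% of left-end reads, and SPAC922.04, for an uncharacterised protein, took 47.2% to 54.7% of right-end reads. Within 50000 bases of the end the sums were small. They were 338 and 358 reads in cwf10-ΔNTE against 534 and 597 in wild type at the left end, and 16 and 25 in cwf10-ΔNTE against 66 and 73 in wild type at the right end.

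Of the 68 rows, 34 passed the filter on low counts, 17 at each end, and were tested with all other gene rows (edgeR quasi-likelihood, BH-adjusted p under 0.05). In cwf10-ΔNTE 14 of them were higher, 15 were lower and 5 were not called. That is 41.2% higher and 44.1% lower, beside 39.6% of all tested gene rows called higher and 38.5% called lower, so the shares called lay near the background of the table. With library totals in place of TMM factors 15 were higher and 14 lower, and over all gene rows the higher ones made up 63.4% of calls in place of 50.6%. Changes were larger in size than over the table as a whole, without a test of that difference. The median size of the log2 change was 0.72 over the 34 rows and 0.22 over all tested gene rows. At least 2-fold, 8 of the 34 rows were higher and 5 lower, beside 3.66% and 0.949% of all tested gene rows. These counts include rows that entered the test through 1 strain alone. Of the tested rows 30 met the filter in both strains, SPAC977.05c and SPAC869.04 met it in cwf10-ΔNTE alone, and ftm2 and SPAC186.02c in wild type alone. Each of these 4 rows was tested only through the strain in which it was high, so its call is not free of that selection. Without them 12 of 30 rows were higher and 13 lower, 9 of the 30 changed at least 2-fold, and the median size was 0.52. Over all gene rows that met the filter in both strains 39.4% were higher and 38.8% lower. Of those rows 3.87% changed at least 2-fold, and the median size was 0.22.

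**Figure D3:**
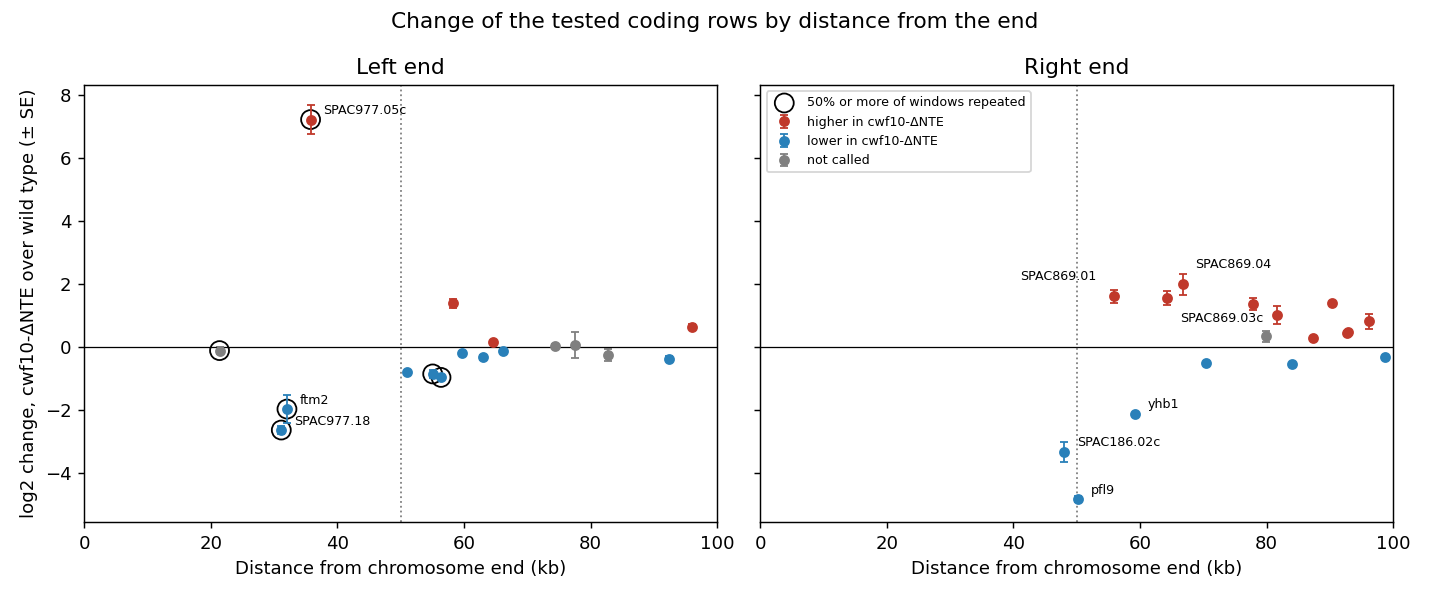
Log2 change (cwf10-ΔNTE over wild type, ± SE) of each tested row against its distance from the chromosome end (kb), at the left and right end. Red rows were higher in cwf10-ΔNTE, blue rows lower and grey rows not called, rings mark rows at least 50% repeated, and rows with a log2 change of 1.5 or more either way are named; SPAC977.05c, SPAC869.04, ftm2 and SPAC186.02c were tested only through the strain in which they were high.

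At the left end 4 rows were higher and 9 lower, with a median log2 change of -0.18. At the right end 10 were higher and 6 lower, with a median of 0.43, beside 0.01 over all tested gene rows. Over all tested gene rows 39.6% were higher and 38.5% lower. Of 15 rows at each end that met the filter in both strains, 3 were higher and 8 lower at the left end. At the right end 9 of these were higher and 5 lower. Among rows with a mean of at least 5 CPM the left end had 2 higher and 7 lower, and the right end had 4 higher and 5 lower. At that level 50.8% of the calls over all gene rows were higher. The left median became 0.04 when only rows at most 10% repeated were kept, and the right median became -0.30 when only rows with a mean of at least 5 CPM were kept, so neither direction of the medians held throughout. Size of change and distance had a Spearman rho of -0.784 over 17 right-end rows and -0.495 over 17 left-end rows. However, rows near the ends often met the filter only in the strain in which they were high. This held for the single right-end row tested within 50000 bases, SPAC186.02c, and for 2 of the 4 at the left end. Over the rows that met the filter in both strains rho was -0.704 at the right end and -0.371 at the left end (15 rows each), as a description.

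Fewer of the rows next to these windows changed at least 2-fold. Of 82 coding rows lying between 100000 and 200000 bases from the ends of chromosome I, all 82 met the filter in both strains and 4.88% changed at least 2-fold, against 9 of the 30 rows at the ends that met it in both strains, or 38.2% of all 34 that were tested. The 4 flanking rows were all higher, up to adh4, an alcohol dehydrogenase gene, whose log2 change of 3.18 was above every rise at the ends other than that of SPAC977.05c. At the ends of chromosome II, which share the repeated blocks, 23.3% of 30 rows that met the filter in both strains changed at least 2-fold, and at the ends of chromosome III 9.84% of 61 did. Over all gene rows that met the filter in both strains the share was 3.87%. These shares were not tested against each other. Just inside the limit stood isp3 at the left end and SPAC922.04 at the right end. Just outside stood pfl8, a cell-surface glycoprotein gene at 99871 to 101431, with a log2 change of 0.04 ± 0.04 (SE), and SPAC922.03, a deaminase gene at 5476698 to 5478012, with 0.10 ± 0.04.

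**Figure D4:**
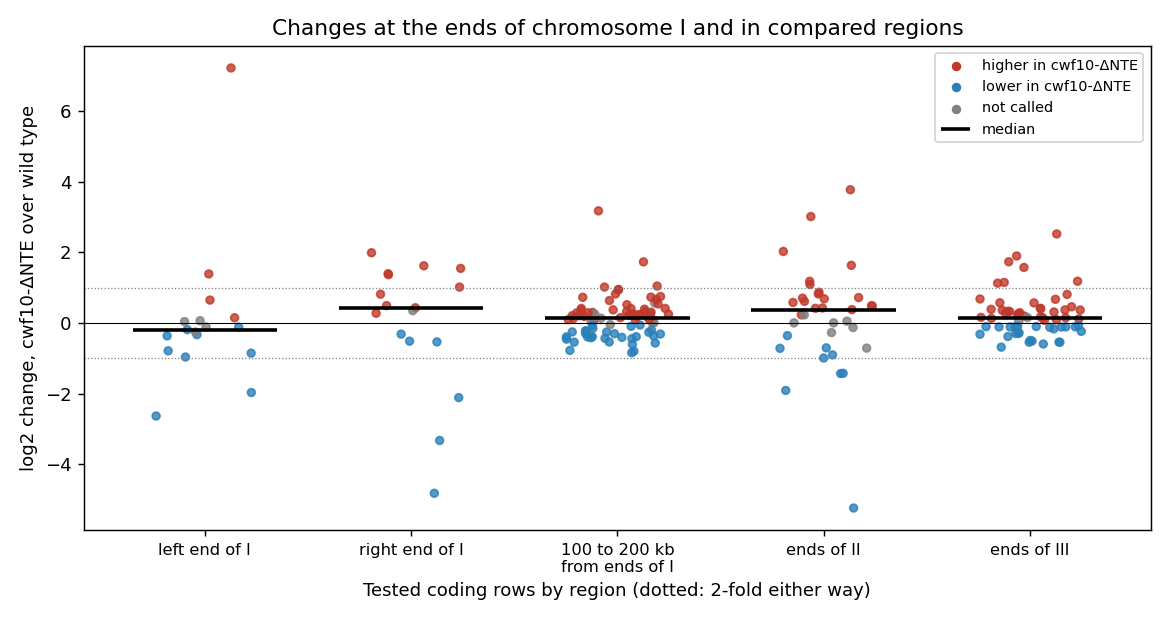
Log2 change (cwf10-ΔNTE over wild type) of each tested coding row at the left and right end of chromosome I, between 100000 and 200000 bases from those ends, and at the ends of chromosomes II and III; red is higher, blue lower and grey not called, bars are medians and dotted lines mark 2-fold. Both ends of chromosome I spread beyond 2-fold in both directions, while the flanking rows mostly stay within it.

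The deepest fall was in the cell-surface class. The gene pfl9 (SPAC186.01, chromosome I 5527462 to 5528959) encodes a glycoprotein of the DIPSY family, whose members include flocculins, proteins through which yeast cells stick together. It had 0.967 and 0.868 CPM in the cwf10-ΔNTE libraries and 26.8 and 24.9 CPM in the wild-type libraries, from 36 and 38 reads against 1072 and 1033. The strains were far apart, with a log2 change of -4.82 ± 0.11 (SE; BH-adjusted p = 8.47e-24 by edgeR's quasi-likelihood test). In bulk cultures such as these, fewer cells with a transcript and less of it per cell cannot be told apart. The other cell-surface rows, SPAC212.08c, SPAC212.12 and pfl6, all at the left end and at least 50% repeated, had too few reads to be tested. The neighbour of pfl9 on the telomere side, SPAC186.02c, for a hydroxyacid dehydrogenase, had 7 and 5 reads in cwf10-ΔNTE and 61 and 62 in wild type, a log2 change of -3.32 ± 0.32. That row met the filter in wild type alone, so no p is given, and with a mean below 5 CPM it was picked out after its values were seen. Beyond it toward the telomere, no right-end row was tested.

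Further inward, yhb1 (SPAC869.02c, 5517865 to 5519950), for a nitric oxide dioxygenase that detoxifies nitric oxide, had 114.6 and 115.7 CPM in cwf10-ΔNTE and 499.6 and 495.2 CPM in wild type. The strains' libraries lay far apart, with a log2 change of -2.11 ± 0.02 (SE; BH-adjusted p = 1.02e-30 by edgeR's quasi-likelihood test). It supplied 9.03% to 27.5% of right-end reads. The only member with a higher level per kb at that end was SPAC922.04, at 691.7 and 689.4 CPM in cwf10-ΔNTE and 860.2 and 854.3 CPM in wild type, where the fall was small, a log2 change of -0.31 ± 0.02 (BH-adjusted p = 7.80e-12 by edgeR's quasi-likelihood test).

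Of the 16 right-end genes that were called 10 were higher in cwf10-ΔNTE, beside 50.6% of the calls over all gene rows; with a mean of at least 5 CPM 4 of 9 were. The gene with the largest rise at a mean of at least 5 CPM was atd2 (SPAC922.07c, 5486848 to 5488830), for an aldehyde dehydrogenase, an enzyme type that oxidises aldehydes to acids. It had 62.3 and 63.4 CPM in cwf10-ΔNTE and 24.0 and 23.8 CPM in wild type, with no overlap and a log2 change of 1.40 ± 0.04 (SE; BH-adjusted p = 1.59e-21 by edgeR's quasi-likelihood test). The non-coding row SPNCRNA.1090 overlaps atd2 and moved with it (log2 change 1.36 ± 0.05); counting did not use strand, so the reads of both cannot be told apart.

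**Figure D5:**
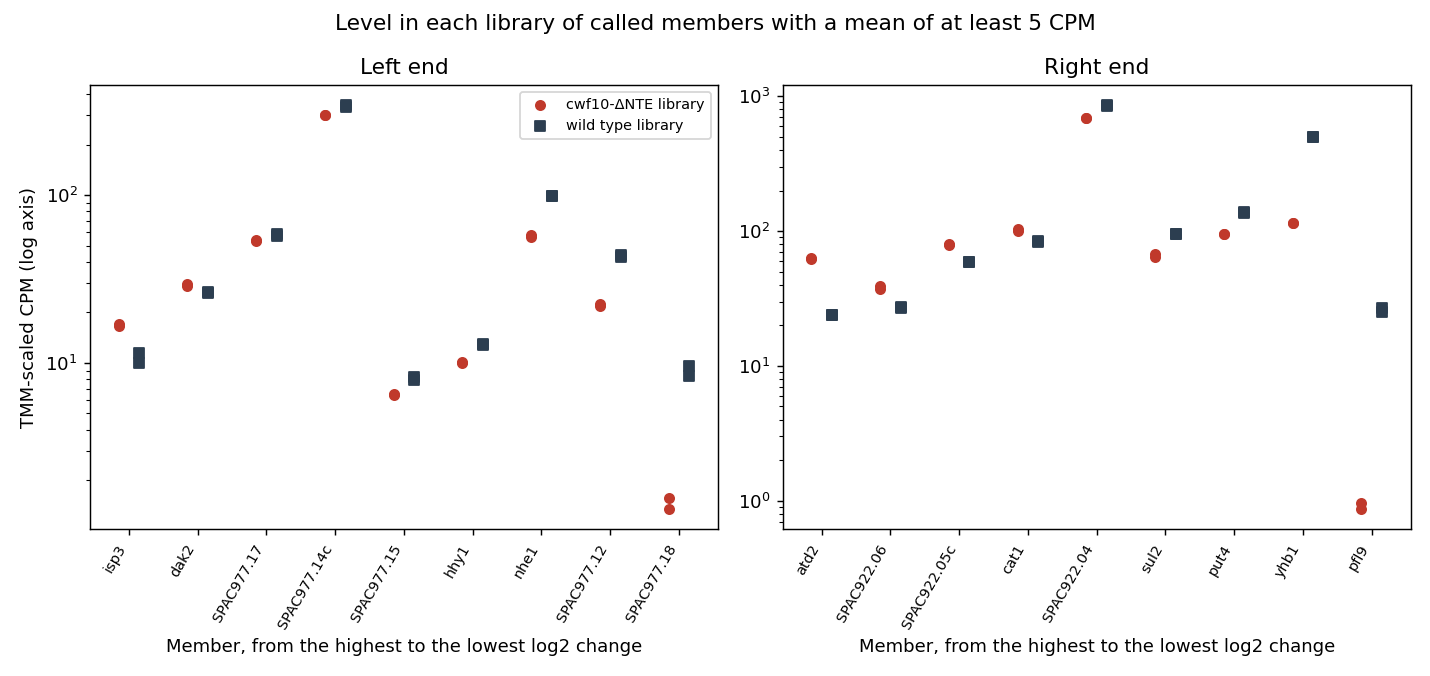
Level (TMM-scaled CPM, log axis) in each cwf10-ΔNTE library (red circles) and each wild-type library (dark squares) of the called members with a mean of at least 5 CPM, ordered by log2 change at each end. The libraries of a strain lie close together and do not overlap with the other strain; pfl9 and yhb1 show the largest gaps at the right end and SPAC977.18 at the left end.

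Other rows between 5499768 and 5523181, a stretch that also holds sul2 and yhb1, were higher at lower levels. They were looked at after their values were seen, since each mean is below 5 CPM. SPAC869.01, for an amidase, had 2.23 and 2.81 CPM in cwf10-ΔNTE and 0.976 and 0.676 CPM in wild type, a log2 change of 1.62 ± 0.21. SPAC869.03c, for a urea transporter, had 1.69 and 2.03 CPM in cwf10-ΔNTE and 0.576 and 0.700 CPM in wild type, a log2 change of 1.55 ± 0.22. These genes lie on either side of yhb1, which fell. SPAC869.04, for a formamidase-like protein, had 32 and 40 reads in cwf10-ΔNTE and 10 and 8 in wild type, a log2 change of 1.99 ± 0.33; it met the filter in cwf10-ΔNTE alone, so no p is given. The gene mel1, for melibiase, which splits the sugar melibiose, had 2.47 and 3.08 CPM in cwf10-ΔNTE and 1.13 and 1.04 CPM in wild type, a log2 change of 1.37 ± 0.18. In all of them both cwf10-ΔNTE libraries lay above both wild-type libraries. By edgeR quasi-likelihood the BH-adjusted p was 6.04e-08 for SPAC869.01, 4.87e-07 for SPAC869.03c and 1.37e-07 for mel1. SPAC869.09, of the Con-6 family, and SPAC922.09, an uncharacterised row of 216 bases, were also higher. Their log2 changes were 1.02 ± 0.27 and 0.82 ± 0.24, on 19 to 53 reads per library. The call of SPAC922.09 was lost with DESeq2 and that of SPAC869.09 without the second cwf10-ΔNTE library. The non-coding row SPNCRNA.1093 overlaps SPAC869.09 and was higher by log2 1.10 ± 0.24. Counting did not use strand, so the reads of SPNCRNA.1093 and SPAC869.09 cannot be told apart.

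Windows of 200 bases upstream of some of these rows are printed because a short word was present in 6 of the 10 that were higher at the right end and absent from SPAC922.05c, cat1, SPAC869.09 and SPAC869.04. The word GATAAG, which holds the core recognised by zinc-finger factors of the GATA type, was searched on both strands, along with TGACGT, part of the site of stress-activated bZIP factors, and TATAAA, the TATA box; the search was chosen after the levels were seen. GATAAG was present upstream of 6 of the 10 right-end rows that were higher, SPAC922.09, SPAC922.06, mel1, SPAC869.03c, atd2 and SPAC869.01, and of 1 of the 6 that were lower, put4. It was present upstream of 0 of the 4 left-end rows that were higher and 1 of the 9 that were lower, hhy1. Over all 5152 coding rows with a full window 7.14% had it, and of the 82 flanking rows 9 had it. Whatever their direction, 7 of 32 right-end rows and 10 of 67 rows at both ends had it. SPAC922.06 and its window lie inside SPAC922.05c, which lacks the word, and the reads of these rows cannot be told apart. TGACGT was present for 4 of 67 rows at both ends, beside 4.00% of all coding rows. TATAAA was present for 32 of 67, or 47.8%, beside 38.4%. Among the 10 right-end rows that were higher, TGACGT was present for 1 and TATAAA for 4. The windows run 5′ to 3′ toward the gene, with GATAAG or its reverse complement in capitals, and in the window of pfl9, which lacks GATAAG, with TATAAA in capitals. They lie at chrI:5488831-5489030 (minus strand) for atd2, chrI:5499568-5499767 (plus) for mel1, chrI:5523182-5523381 (minus) for SPAC869.01, chrI:5492702-5492901 (plus) for put4 and chrI:5527262-5527461 (plus) for pfl9.
atd2: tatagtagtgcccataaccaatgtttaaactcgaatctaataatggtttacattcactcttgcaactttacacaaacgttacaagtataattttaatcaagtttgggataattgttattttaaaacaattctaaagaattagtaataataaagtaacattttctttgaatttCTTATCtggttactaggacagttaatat
mel1: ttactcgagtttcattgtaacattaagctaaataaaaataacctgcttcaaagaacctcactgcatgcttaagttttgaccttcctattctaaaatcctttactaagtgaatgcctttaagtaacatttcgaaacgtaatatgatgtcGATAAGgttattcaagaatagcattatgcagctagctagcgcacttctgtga
SPAC869.01: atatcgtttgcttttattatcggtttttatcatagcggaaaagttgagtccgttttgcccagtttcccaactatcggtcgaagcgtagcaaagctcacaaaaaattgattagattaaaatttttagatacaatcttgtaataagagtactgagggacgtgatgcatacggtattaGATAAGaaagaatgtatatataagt
put4: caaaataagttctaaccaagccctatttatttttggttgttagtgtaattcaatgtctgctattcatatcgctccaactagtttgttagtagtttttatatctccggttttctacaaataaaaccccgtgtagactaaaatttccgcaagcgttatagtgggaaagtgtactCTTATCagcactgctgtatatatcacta
pfl9: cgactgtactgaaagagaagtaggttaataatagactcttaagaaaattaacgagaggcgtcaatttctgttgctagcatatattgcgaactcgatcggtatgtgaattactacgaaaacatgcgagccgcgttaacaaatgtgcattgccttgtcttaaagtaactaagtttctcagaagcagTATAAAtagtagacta
The word starts 28 bases before the row in atd2 and put4, 25 before SPAC869.01 and 52 before mel1. Of these 4 genes put4 fell and the others rose. A match is a description of the letters and does not show that a factor binds there.

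Transporters moved in both directions. Of 10 rows sorted as transport by their product text, 9 were tested, 4 were higher, 4 were lower, near the shares of the whole table, and ght3, for a gluconate symporter, was not called; the keyword sort put SPAC922.06, a reductase named for its acyl carrier, among the 4 that were higher. The proline transporter gene put4 had 95.96 and 95.1 CPM in cwf10-ΔNTE and 136.6 and 139.6 CPM in wild type, a log2 change of -0.53 ± 0.02. The non-coding row SPNCRNA.1091 overlaps put4 and had a log2 change of -0.52 ± 0.03. The sulfate transporter gene sul2 had 67.9 and 64.8 CPM in cwf10-ΔNTE and 94.5 and 94.4 CPM in wild type, a log2 change of -0.51 ± 0.03. Both lay lower in each cwf10-ΔNTE library. The arginine and lysine transporter gene cat1, which lies between atd2 and put4, was higher, at 103.4 and 99.8 CPM in cwf10-ΔNTE and 82.5 and 84.7 CPM in wild type, a log2 change of 0.28 ± 0.03. The overlapping rows SPAC922.05c, a transporter, and SPAC922.06 were higher by log2 0.43 ± 0.03 and 0.50 ± 0.05. SPAC922.06 lies wholly inside SPAC922.05c. Counting did not use strand, so the reads of this pair, like those of put4 and SPNCRNA.1091, cannot be told apart. By edgeR quasi-likelihood the largest BH-adjusted p among put4, sul2, cat1, SPAC922.05c and SPAC922.06 was 8.19e-10, that of cat1.

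At the left end the transport genes that were called fell. The gene nhe1 (SPAC977.10, 50946 to 53858), for the antiporter that exports sodium in exchange for protons, had 58.2 and 56.3 CPM in cwf10-ΔNTE and 98.8 and 98.4 CPM in wild type, a log2 change of -0.79 ± 0.03 (SE; BH-adjusted p = 8.30e-19 by edgeR's quasi-likelihood test). The non-coding rows that overlap it, SPNCRNA.602 and prl19, were called higher, with log2 changes of 0.31 ± 0.12 and 0.31 ± 0.13. These rows also overlap each other. Counting did not use strand, so their reads cannot be told apart from each other or from those of nhe1. The fluoride channel gene fex1 (SPAC977.11, 55059 to 56308), 81.6% of whose windows recur in its chromosome II relative fex2, had 103 and 126 reads in cwf10-ΔNTE and 194 and 221 in wild type, a log2 change of -0.85 ± 0.12 (BH-adjusted p = 5.38e-07 by edgeR's quasi-likelihood test). SPAC977.12 (56373 to 57736), for an L-asparaginase, which frees ammonia from asparagine, lies next to it and is 75.7% repeated. It had 21.8 and 22.5 CPM in cwf10-ΔNTE and 43.8 and 42.6 CPM in wild type, a log2 change of -0.96 ± 0.04 (BH-adjusted p = 8.16e-17 by edgeR's quasi-likelihood test). In these 3 neighbouring genes every cwf10-ΔNTE library lay below every wild-type library.

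Closer to the left telomere, SPAC977.18 (31140 to 32345), for an uncharacterised protein, had 58 and 59 reads in cwf10-ΔNTE and 335 and 395 in wild type. Its log2 change was -2.63 ± 0.13 (SE; BH-adjusted p = 3.05e-16 by edgeR's quasi-likelihood test), on a row 86.3% repeated with 158 windows of its own among 1157. It overlaps ftm2 (32034 to 33012), for a protein with a transmembrane helix domain, which had 6 and 4 reads in cwf10-ΔNTE and 18 and 22 in wild type, a log2 change of -1.97 ± 0.44. As ftm2 met the filter in wild type alone, no p is given. Counting did not use strand, so in the stretch that ftm2 shares with SPAC977.18 the reads of both cannot be told apart. SPAC977.05c, the third row further in from ftm2, moved the other way. SPAC212.04c, the only other tested row within 50000 bases of that end, was not called: it had 155 and 153 reads in cwf10-ΔNTE and 169 and 165 in wild type, a log2 change of -0.11 ± 0.12.

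Other called left-end enzymes changed less than SPAC977.12. SPAC977.14c (59614 to 60907) had 299.9 and 299.6 CPM in cwf10-ΔNTE and 337.1 and 344.3 CPM in wild type, a log2 change of -0.18 ± 0.02 (SE; BH-adjusted p = 3.13e-08 by edgeR's quasi-likelihood test). The fall was small but larger than the spread between libraries. SPAC977.15, for a dienelactone hydrolase family protein, and hhy1, for a hydrolase, fell by 0.33 and 0.36 on the log2 scale; SPNCRNA.605, which overlaps hhy1, had a log2 change of -0.44 ± 0.07. The gene dak2, for dihydroxyacetone kinase, which acts in glycerol use, and SPAC977.17, for a protein of the MIP superfamily of water and glycerol channels, overlap each other and had log2 changes of 0.15 ± 0.05 and -0.11 ± 0.03. In the stretch they share the reads of dak2 and SPAC977.17 cannot be told apart, as counting did not use strand. The call of dak2 was lost with DESeq2 (adjusted p = 0.0721) and that of SPAC977.17 with library totals (log2 change -0.03). Next to SPAC977.14c the pseudogene SPAC977.13c, at 144 and 183 reads in cwf10-ΔNTE and 67 and 58 in wild type, was higher by log2 1.39 ± 0.15; its mean is below 5 CPM and it was named after its values were seen.

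The innermost left-end gene, isp3 (SPAC1F8.05, 95961 to 96966), codes for a protein of the outer spore coat. It had 16.6 and 17.0 CPM in cwf10-ΔNTE and 11.5 and 9.97 CPM in wild type, a log2 change of 0.65 ± 0.07 (SE; BH-adjusted p = 4.38e-09 by edgeR's quasi-likelihood test). The non-coding row SPNCRNA.606 overlaps it and was higher by log2 0.74 ± 0.10.

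Sorted by product text, the enzymes numbered 22, of which 12 were tested, 5 were higher and 6 were lower; at the left end 1 of 5 tested was higher and 4 were lower, and at the right end 4 of 7 were higher and 2 were lower. Over all tested gene rows 39.6% were higher and 38.5% lower, so the counts over both ends lie near that background; SPAC869.04, higher, and SPAC186.02c, lower, are among the enzymes called. The enzyme that was not called, pcm2, a protein repair methyltransferase gene, had 109 and 89 reads in cwf10-ΔNTE and 72 and 84 in wild type (log2 change 0.35 ± 0.18; BH-adjusted p = 0.0694 by edgeR's quasi-likelihood test). Of 14 rows with uncharacterised products 6 were tested, 1 was higher and 2 were lower. Neither helicase row, tlh1 and SPAC212.06c, could be tested, and no row fell under transcription or chromatin. Overlap with another gene row was rarer here than elsewhere, in 13 of 68 rows or 19.1%, against 65.5% of other coding rows.

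Of the 34 rows that were not tested, 33 lay within 50000 bases of an end and 14 of these had no read. The exception was hry1, for a cation-binding protein, 75842 bases from the right end, with 4 and 10 reads in cwf10-ΔNTE and 2 and 0 in wild type. SPAC212.09c had 3 and 6 reads in cwf10-ΔNTE and 1 and 0 in wild type. SPAC750.01, an aldo/keto reductase gene at the right end that shares 34.2% of its windows with SPAC977.14c, had 6 and 7 reads in cwf10-ΔNTE and 0 and 2 in wild type. SPAC212.09c, SPAC750.01 and hry1 were picked out after their values were seen. In them the cwf10-ΔNTE libraries lay above the wild-type libraries, at counts too low for a test. The same held for other untested rows, such as SPAC212.07c, SPAC212.08c and SPAC977.06. In others, such as gdt1 and pdc102, the libraries of the strains overlapped. How often rows this low separate in the whole table was not counted, so no direction is read from them. The ftm1, ftm3 and ftm4 rows, relatives of ftm2, had at most 2 reads in a library. The rows next to both telomeres, tlh1 and SPAC750.08c, a malic enzyme row with every window repeated, had none.

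Genes at these ends carry few introns: 10 of 68, or 14.7%, had an intron row, against 49.2% of other coding rows. Of their 11 introns 2 had reads enough for a test, and both held more reads for the reads of their gene in cwf10-ΔNTE, beside 47.1% of all 5038 tested introns called so. The intron of nhe1 (52241 to 52317) had 17 and 31 reads in cwf10-ΔNTE and 19 and 17 in wild type, while reads joining its exons numbered 95 and 82 in cwf10-ΔNTE and 161 and 209 in wild type. Its log2 change relative to gene reads was 1.20 ± 0.33 (SE; BH-adjusted p = 0.00404 by edgeR's quasi-likelihood test). The intron of SPAC977.18 at 31558 to 31767 had 6 and 5 reads in cwf10-ΔNTE and 13 and 4 in wild type, with 23 and 24 exon-joining reads in cwf10-ΔNTE and 178 and 200 in wild type, a log2 change of 1.97 ± 0.66 (BH-adjusted p = 0.0164 by edgeR's quasi-likelihood test). No library had an exon-intron boundary read for this intron of SPAC977.18. The intron reads themselves overlapped between the strains for both introns. Neither call held with DESeq2, with library totals in place of gene reads, or without the second cwf10-ΔNTE library, where the count was 0 each time.

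A list of 34 genes for telomere proteins and heterochromatin silencing was counted beside these rows, since they act on the same ends. All 34 were tested, 15 were higher, 10 were lower and 9 were not called, with a median log2 change of 0.04. Beside 39.6% of all tested gene rows higher and 38.5% lower, and a median of 0.01, these counts lie near the background. Changes were small, between -0.31, for raf2 of the complex that methylates histones in heterochromatin, and 0.59, for sir2, a histone deacetylase, and ten1, a telomere-capping protein. The histone methyltransferase gene clr4 changed by log2 0.39, and swi6, for the protein that binds methylated histone, by -0.20. Whether these levels bear on the ends was not tested.

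In the authors' deposited table an adjusted p was given for 54 of the 68 rows, and 11 were higher and 15 lower at a threshold of 0.05. Of the 34 rows tested here, 32 had the same sign in the authors' deposited table; the others, SPAPJ695.02 and SPAPJ695.01c, were not called. Rows called here and not in the authors' deposited table were dak2, SPAC922.09 and SPAC869.09.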

How the data were processed

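Poly-A RNA of 2 cwf10-ΔNTE and 2 wild-type libraries was sequenced from a stranded library kit, and counts rest on the first reads of the pairs, per the labels. The submitters' processing notes name the tools Bowtie 0.12.7 and CASAVA 1.8.2; the build, the read length and the handling of reads with several matches are not given in the sources. The authors deposited raw read counts per gene and intron row, with counts of exon-intron reads, per the file headers. They also deposited log2 fold changes with DESeq adjusted p-values, and log2 splicing efficiencies, from which exon-exon reads were solved (all 21444 values whole within 0.001). The table's chromosome I has the length of the reference used for names and sequence (5579133 bases, RefSeq ASM294v3; 6844 gene rows matched). The counts do not separate strands, judged from their values: in 848 pairs of rows on opposite strands with at least 95% of one inside the other, the log2 ratio of read densities had a median of 0.11.

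Counts of all gene rows were tested with edgeR 4.0.16 in R 4.3.3 (filterByExpr, TMM, glmQLFit and glmQLFTest, BH adjustment, threshold 0.05), and introns with the log of host reads plus 1 as offset, for at least 10 intron reads in all and 50 host reads per library. CPM are TMM-scaled; errors are SDs over libraries or SEs, the log2 change over the root of F. Replicate pairs differed beyond sampling noise (chi-square per degree of freedom 2.94 and 2.40). Windows of 50 bases were matched to the genome on both strands. Named genes are those nearest each end, the highest in level, at each end up to 7 that rose and 7 that fell most among rows averaging at least 5 CPM whose strains did not overlap, rows at least 50% repeated and called introns; others are marked. The members, gene lists and rules were chosen with earlier results of these data known. Alternatives were DESeq2 1.42.0, library totals, filters, a replicate block and leaving out each library.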

Additional observations from a re-analysis of the deposited data

How the results depend on the processing

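No called member changed sign under any alternative. The 14 members higher and 15 lower became 12 and 15 with DESeq2, and 15 and 14 with library totals. With the replicate block, which took replicates 1 and 2 as pairs, they became 15 and 15. Differences between replicates 1 and 2 in cwf10-ΔNTE correlated at -0.0344 with those in wild type, over 5916 genes. Same-numbered libraries thus showed no shared deviation by which the numbers would pair them. The subsets shrank the counts by their make-up: at a mean of at least 5 CPM 6 were higher (left 2, right 4) and 12 lower (left 7, right 5), among rows that overlap no other 8 were higher (left 2, right 6) and 9 lower (left 4), within 50000 bases 1 was higher (left 1, right 0) and 3 lower (left 2, right 1), and among left rows at most 10% repeated 4 were lower. Counting only members that met the low-count filter in both strains, a choice made after seeing the data, gave 12 higher and 13 lower. Named calls lost were SPAC977.17 with library totals (log2 -0.03), dak2 (0.14) and SPAC922.09 with DESeq2, and SPAC869.09 without the second cwf10-ΔNTE library; SPAC212.04c, not called, ran from -0.23 to 0.021 without 1 cwf10-ΔNTE library.

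The left median log2 change of -0.18 became -0.10 with library totals, 0.11 with no filter, -0.24 at 5 CPM, -0.15 without overlapping rows, 0.042 at most 10% repeated and -1.04 within 50000 bases; leaving out a library gave -0.19 to -0.16. The right median of 0.43 became 0.51 with library totals, -0.30 at 5 CPM, 0.32 without overlapping rows and -3.32 within 50000 bases; leaving out a library gave 0.42 to 0.53. The share ratio was 0.906, 0.885, 0.657 and 0.819 at the left end (without overlapping rows, at most 10% repeated, within 50000 bases, without the top row), and 0.666, 0.310 and 0.634 at the right end (without overlapping rows, within 50000 bases, without the top row). These 3 gave 1.36, 2.18 and 1.29 for the left to right ratio in cwf10-ΔNTE over that in wild type. Introns called with higher retention numbered 2, and 0 with DESeq2 or library totals, 1 at 30 summed reads and 0 to 2 without a library. The cause of these moves was not tested, apart from the smaller sets of rows and libraries.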

Other observations

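Non-coding rows in the same windows of chromosome I numbered 29, of which 17 were tested, 6 were higher and 10 were lower in cwf10-ΔNTE, and the median log2 change was -0.52. Across the genome 1489 non-coding rows were tested, of which 48.0% were higher and 25.2% lower, with a median of 0.15. Of the 17 rows 4, prl37, SPNCRNA.137, SPNCRNA.284 and SPNCRNA.280, met the filter on low counts in wild type alone, the strain in which they were higher. Without them 6 of 13 were higher and 6 lower, with a median of 0.08, so the lower median rests on them. The lowest was prl37 (71982 to 72380), which had 1 and 5 reads in cwf10-ΔNTE and 28 and 29 in wild type. Its log2 change was -3.19 ± 0.47 (SE), with no p because it met the filter in wild type alone. SPNCRNA.137, some 500 bases before it, had 8 and 4 reads in cwf10-ΔNTE and 29 and 24 in wild type (log2 -2.11 ± 0.41). At the right end SPNCRNA.284 (5525499 to 5525873), between SPAC869.01, which was higher, and pfl9, which was lower, had 9 and 7 reads in cwf10-ΔNTE and 42 and 31 in wild type, a log2 change of -2.17 ± 0.35. SPNCRNA.1092 (5495270 to 5496597), which overlaps no other row and lies beside put4, was higher, with 320 and 308 reads in cwf10-ΔNTE and 211 and 192 in wild type (log2 0.65 ± 0.11). Of these only SPNCRNA.1092 had more than 50 reads in a library. Of the 13 non-coding rows that met the filter in both strains, 9 overlap another gene row. Among these SPNCRNA.1090, SPNCRNA.1091, SPNCRNA.605, SPNCRNA.606 and SPNCRNA.1093 overlap the coding rows atd2, put4, hhy1, isp3 and SPAC869.09. Counting did not use strand, so reads of overlapping rows cannot be told apart, and the 13 rows are not separate measurements.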
